A study of Solanum tuberosum with 5 samples.

Results

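The 74 tags described here were at their highest in potato plantlets that had spent 5 days in short days. They were selected on the measured values themselves, from 27553 distinct tags in the series. A tag was a member when all 5 libraries listed it, at least 1 library held it at 10 TPM or more (tags per 1000000 tags of the library), and the short-day day 5 value was at least 1.8 times that of each other library with 1 TPM added to every value. Of the 6208 tags that met the listing and the 10 TPM conditions, the 74 members made up 1.19%.

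The plantlets, sampled whole, were of a genotype labelled E26 and had spent 3 weeks in long days (LD). Part of them then went to short days (SD) and the rest stayed in LD. The groups were SD day 5, SD day 2, LD day 0 (taken before the move), LD day 2 and LD day 5, with 1 library each. All groups therefore share the genotype, the tissue and the 3 weeks in LD, and no group has replicates. The smallest library was SD day 5 with 3492457 tags and the largest LD day 5 with 3688119, so that 10 TPM stands for 34.9 to 36.9 tags. The listed tags held 59.7% of the total in SD day 5, 50.9% at SD day 2, 52.9% at LD day 0, 56.1% at LD day 2 and 58.9% at LD day 5.

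Day length is a main cue for tuber formation in potato: in many genotypes short days lead stolon tips to swell into tubers, and the signal is sensed in leaves and carried to the stolons. Tuber formation is known for a switch of the stolon tip from elongation to radial growth and for the build-up of starch and storage proteins. A tag library reads 1 short sequence beside a restriction site near the end of each polyadenylated transcript, so the level of a tag stands for the amount of its transcript, without division by length. The files give no gene for a tag, so no role is given to any of them. The tags are named by their rank in SD day 5, tag 1 being the most abundant. In whole plantlets, more cells that hold a transcript and more transcript per cell cannot be told apart.

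The size of the rise was modest for most members and large for a few. SD day 5 stood at a median of 2.08 times the next-highest library (1 TPM added), with a middle range from 1.93 to 2.28 times. The ratio over the next-highest library was at least 2 in 44 members, at least 3 in 8, at least 4 in 5 and above 8 in tag 6 alone, which falls to 7.83 where a near copy of tag 6 listed in LD day 2 is added to it. These ratios chose the members and are given as a description. For all 74 the 95% counting interval of the ratio over the next-highest library lay above 1, and for 25 it lay above 1.8. Such intervals hold counting error alone, because each group has 1 library. They can be too narrow even for that, because tags read without molecular identifiers can be copies of 1 molecule.

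The size depended on the library that SD day 5 was set against. The median ratio (1 TPM added) was 4.57 over SD day 2, 4.22 over LD day 0, 3.29 over LD day 2 and 2.14 over LD day 5. A rise of at least 4 times was met by 41 members over SD day 2, 42 over LD day 0, 25 over LD day 2 and 6 over LD day 5. LD day 5 was the next-highest library for 47 of the 74 members, LD day 2 for 11, SD day 2 for 10 and LD day 0 for 6. The same count over all tags is not given here, so this order is not read as particular to the members.

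**Figure D1:**
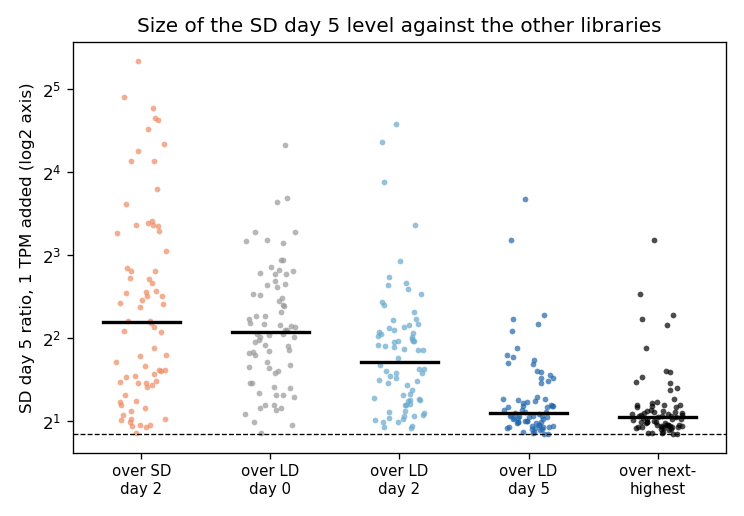
Ratio of SD day 5 over each other library and over the next-highest one, with 1 TPM added, on a log2 axis. Each point is 1 of the 74 members, the bar is the median and the dashed line is the 1.8 threshold; among the 4 single libraries the points over LD day 5 lie closest to the line, with a median of 2.14, and those over the next-highest library have a median of 2.08.

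A call below means a log2 ratio of at least 1 in size (1 TPM added), at least 10 TPM in the higher library and a counting interval that excludes a ratio of 1. By that call, SD day 5 was higher than LD day 5 for 52 members, where 2.37% of all 6208 tags were. It was higher than SD day 2 for 68 members (20.5% of all tags), higher than LD day 2 for 69 (8.59%) and higher than LD day 0 for 71 (22.9%). The rule used these contrasts, so nothing is read from the members' counts.

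The 10 most abundant members spanned an order of magnitude. Tag 1 was at 6186 TPM in SD day 5, against 1157 in SD day 2 and 1319, 1633 and 3263 in LD days 0, 2 and 5. It was 1.90-fold higher than LD day 5 (interval 1.85 to 1.94) and 5.35-fold higher than SD day 2 (interval 5.17 to 5.53). Within LD it also stood higher at day 5, 2.00-fold above LD day 2 (interval 1.94 to 2.06) and 2.47-fold above LD day 0 (interval 2.39 to 2.56).

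Tag 2 was at 2445 TPM in SD day 5, against 530.6 in SD day 2 and 591.0, 803.0 and 1139 in LD days 0, 2 and 5. Tag 5 was at 2042 in SD day 5, against 868.2 in SD day 2 and 646.3, 724.9 and 902.1 in LD days 0, 2 and 5. Tag 10 was at 600.4 in SD day 5, against 296.8 in SD day 2 and 131.6, 187.6 and 313.2 in LD days 0, 2 and 5. All 3 had LD day 5 as the next-highest library, 2.15-fold below SD day 5 for tag 2 (interval 2.07 to 2.23), 2.26-fold for tag 5 (interval 2.17 to 2.36) and 1.92-fold for tag 10 (interval 1.78 to 2.06).

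For tags 4 and 7 SD day 2 was the next-highest library. Tag 4 was at 2084 TPM in SD day 5, against 1089 in SD day 2 and 304.7, 568.3 and 642.9 in LD days 0, 2 and 5. Tag 7 was at 1021 in SD day 5, against 525.7 in SD day 2 and 247.2, 259.8 and 508.7 in LD days 0, 2 and 5. SD day 2 stood 1.92-fold above LD day 2 for tag 4 (interval 1.82 to 2.02) and 2.02-fold above it for tag 7 (interval 1.87 to 2.19). By day 5 the SD value was 3.24-fold above the LD value for tag 4 (interval 3.09 to 3.40) and 2.01-fold above it for tag 7 (interval 1.90 to 2.12).

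Tags 3, 6, 8 and 9 showed the other course, low at SD day 2 and then steep. Tag 3 was at 2303 TPM in SD day 5, against 164.5 in SD day 2 and 336.8, 223.7 and 472.6 in LD days 0, 2 and 5. Tag 6 was at 1256 in SD day 5, against 30.2 in SD day 2 and 137.8, 51.9 and 97.6 in LD days 0, 2 and 5. Tag 8 was at 983.8 in SD day 5, against 31.9 in SD day 2 and 169.1, 47.1 and 107.9 in LD days 0, 2 and 5. For these 3 tags SD day 2 was the lowest library, and for tags 6 and 8 the next-highest library was LD day 0. Tag 9 was at 662.9 in SD day 5, against 23.4 in SD day 2 and 85.4, 165.8 and 218.8 in LD days 0, 2 and 5. SD day 2 was its lowest library too, while LD day 5 was the next-highest.

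Between the SD libraries, day 5 stood 14.0-fold above day 2 for tag 3 (interval 12.9 to 15.3), 41.6-fold for tag 6 (interval 34.3 to 50.9), 30.8-fold for tag 8 (interval 25.5 to 37.5) and 28.4-fold for tag 9 (interval 22.8 to 35.8). Over LD day 5 the same tags were 4.87-fold (interval 4.63 to 5.14), 12.9-fold (interval 11.6 to 14.4), 9.12-fold (interval 8.22 to 10.1) and 3.03-fold higher (interval 2.80 to 3.29). As listed, tags 6 and 8 held the highest ratios over the next-highest library, 9.06 and 5.79 with 1 TPM added. For tag 6, LD day 2 also listed a tag that differs from it at 1 position, at 107.7 TPM, which no other library listed. With that value added, an alternative chosen after seeing the data, tag 6 was at 159.6 TPM in LD day 2, which then became its next-highest library. The fold of SD day 5 over LD day 2 was then 7.87 in place of 24.2, and the ratio over the next-highest library 7.83 (1 TPM added), still the highest of the members. Whether both tags stand for 1 transcript was not tested.

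**Figure D2:**
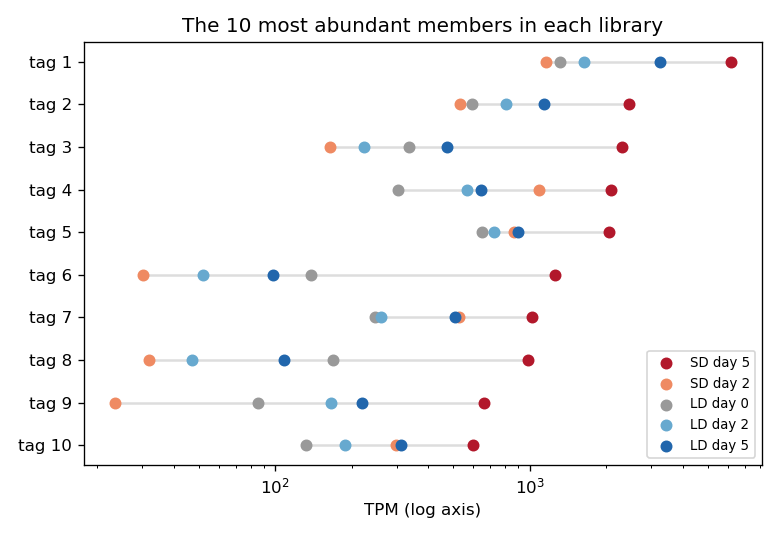
Level in TPM (log axis) of the 10 most abundant members, 1 row per tag and 1 point per library, with the grey line running from the lowest to the highest library. SD day 5 lies to the right in every row, at 6186 TPM for tag 1 and 600.4 for tag 10, while the order of the other 4 libraries differs between tags.

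High ratios over the next-highest library were also found among less abundant members. Tag 35 was at 63.6 TPM in SD day 5, against 4.28 in SD day 2 and 5.64, 3.38 and 12.7 in LD days 0, 2 and 5, which is 4.99-fold above LD day 5 (interval 3.63 to 6.99). Tag 43 was at 45.0 in SD day 5, against 9.12 in SD day 2 and 9.30, 9.31 and 9.22 in LD days 0, 2 and 5. Its other 4 libraries were the closest together of any member, with the highest 1.02 times the lowest (1 TPM added), and SD day 5 was 4.83-fold above the next-highest of them (interval 3.30 to 7.26).

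Tag 17 was at 229.4 TPM in SD day 5, against 33.9 in SD day 2 and 57.5, 35.8 and 61.6 in LD days 0, 2 and 5. Tag 42 was at 45.8 in SD day 5, against 9.12 in SD day 2 and 5.64, 6.77 and 14.4 in LD days 0, 2 and 5. Both had LD day 5 as the next-highest library, 3.73-fold below SD day 5 for tag 17 (interval 3.21 to 4.34) and 3.19-fold for tag 42 (interval 2.32 to 4.44). Tag 66 was at 19.2 in SD day 5, against 5.99 in SD day 2 and 4.79, 2.82 and 4.88 in LD days 0, 2 and 5. Tag 32 was at 75.3 in SD day 5, against 26.5 in SD day 2 and 20.6, 17.8 and 20.9 in LD days 0, 2 and 5. SD day 2 was the next-highest library for tags 66 and 32, with intervals of the ratio from 1.94 to 5.51 and from 2.23 to 3.64. These complete the 10 members with the highest ratio over the next-highest library.

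Abundance varied more among members than the size of the rise. The SD day 5 level ran from 10.6 TPM for tag 74 to 6186 for tag 1, with a median of 56.1 and a middle range from 27.1 to 175.5. The median was 11.8 at SD day 2, 10.7 at LD day 0, 16.2 at LD day 2 and 23.7 at LD day 5. Over all 6208 tags the median was 18.0 in SD day 5 and between 17.7 and 19.8 in the other 4 libraries. At 100 TPM or more there were 29 members in SD day 5 (39.2%), against 10.6% of all tags. The rule partly fixes this excess and that of the median. Every member met the 10 TPM condition in SD day 5, its highest library, while other tags could meet it in any library. The count was 10 members in SD day 2 (13.5%), 11 at LD day 0 (14.9%), 11 at LD day 2 (14.9%) and 15 at LD day 5 (20.3%). Of all tags, between 9.49% and 10.4% reached that level in these 4 libraries. The rule used their values too, so these shares are not free of the selection. Across the 74 members the rank correlation between the SD day 5 level and the ratio over the next-highest library was 0.11, a description of values that share 1 library.

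**Figure D3:**
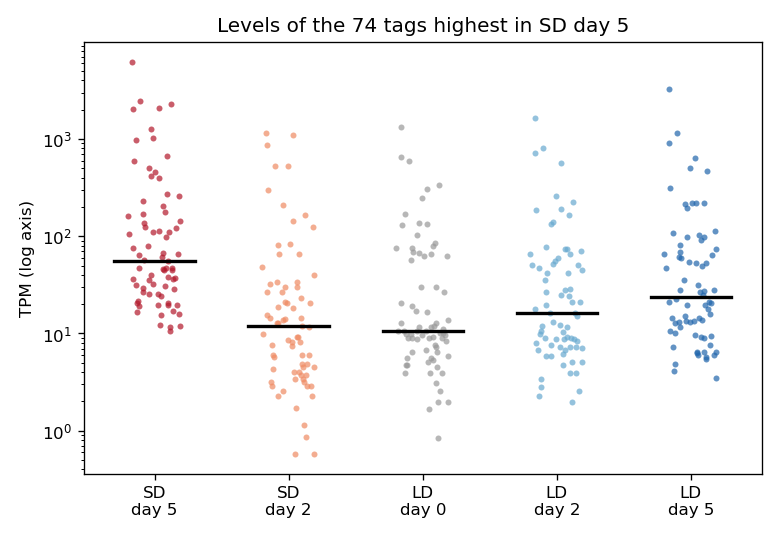
Level in TPM (log axis) of the 74 members in each library, 1 point per tag, with a bar at the median. The median is 56.1 TPM in SD day 5, against 11.8 in SD day 2 and 10.7, 16.2 and 23.7 in LD days 0, 2 and 5.

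Low levels rested on few tags. In SD day 5 the least abundant member had 37 tags, while 3 members had 3 tags or fewer in SD day 2 and 1 in LD day 0. Under 10 TPM there were 36 members in SD day 2, 33 at LD day 0, 29 at LD day 2 and 17 at LD day 5. In SD day 5 the rule allows no member under 10 TPM, because SD day 5 is the highest library of each. The same counts over all tags are not given here, so these are a description of depth alone.

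The summed level was concentrated in a few tags. Together the members held 25425 TPM in SD day 5, or 4.26% of its listed total, against 6116 TPM (1.20%) at SD day 2, 5328 (1.01%) at LD day 0, 6450 (1.15%) at LD day 2 and 10278 (1.75%) at LD day 5. Tag 1 alone held 24.3% of the sum in SD day 5, the first 5 tags 59.2% and the first 10 tags 77.0%. The first 4 tags reached 50% of it and the first 22 reached 90%. The same 10 tags held 77.1% of the members' sum in SD day 2, 74.5% at LD day 0, 72.3% at LD day 2 and 74.6% at LD day 5, so the concentration was present in every library. It depended on the rule: the first 10 tags held 43.6% of the sum when LD day 5 was left out of the rule, 32.3% with unlisted tags set to 0, 60.9% at a threshold of 1.5 times and 98.9% at 2.5 times.

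The sum in SD day 5 was 4.16 times that in SD day 2, 4.77 times that in LD day 0, 3.94 times that in LD day 2 and 2.47 times that in LD day 5. Without tag 1 the ratio to LD day 5 was 2.74, and without the first 10 tags it was 2.24. The difference in sum over LD day 5 was 15147 TPM, of which the first 10 tags made up 78.7%. The remaining 64 members summed to 5841 TPM in SD day 5, against 1399 in SD day 2 and 1359, 1785 and 2612 in LD days 0, 2 and 5.

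**Figure D4:**
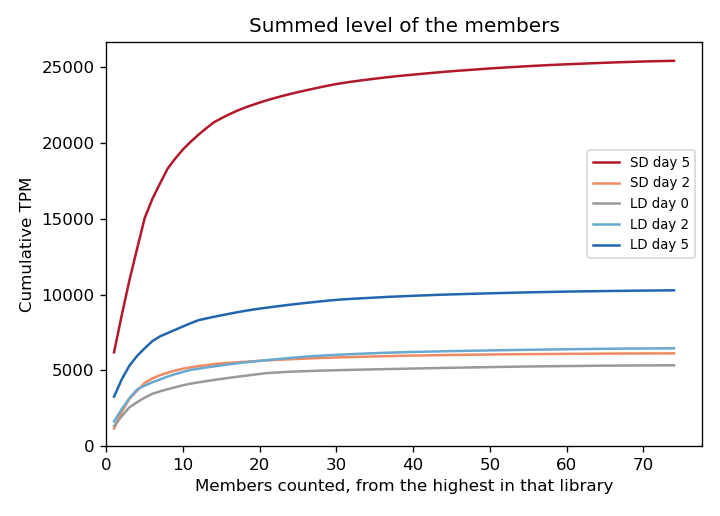
Cumulative TPM of the members, counted from the highest in each library, with 1 line per library. The SD day 5 line ends at 25425 TPM and the LD day 5 line at 10278, and all lines flatten after the first tags.

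Within LD most members also stood highest at day 5. That the margin was smaller than that of SD day 5 follows from the rule. LD day 5 was above both LD day 0 and LD day 2 for 55 of the 74 members (74.3%), against 38.2% of all 6208 tags, and below both for 3, against 30.1% of all tags. For 36 members (48.6%) the LD values were higher at each step over days 0, 2 and 5, against 29.2% of all tags, and for 0 they were lower at each step, against 22.0%. The median log2 ratio (1 TPM added) of LD day 5 over LD day 2 was 0.48 for the members and 0.04 for all tags. Over LD day 0 it was 0.84 for the members and 0.17 for all tags. The summed level in LD day 5 was 1.59 times that in LD day 2 and 1.93 times that in LD day 0, and between 1.52 and 1.57 times and between 1.73 and 1.84 times under the other 3 scalings of the libraries. The rule set the same ceiling for every LD library relative to SD day 5 and did not use their order. It did use their values, so these comparisons with all tags are not free of the selection. The ceiling also cut most tags at LD day 5. Without LD day 5 in the rule 420 tags met it, against 85 without LD day 0 and 93 without LD day 2.

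By the call, LD day 5 was higher than LD day 2 for 12 members (16.2%), against 6.04% of all tags, and lower for 0, against 7.81%. LD day 5 was higher than LD day 0 for 29 members (39.2%), against 22.7%, and lower for 0, against 17.7%. With 1 library per group no test of these shares was run. Members under 10 TPM in both libraries of a pair could not be called, although they met the 10 TPM condition in SD day 5. Tag 61 is such a case: its log2 ratio was -1.10 in each pair, with intervals below 1. The absence of lower calls and the shares are therefore partly fixed by the selection. Other settings gave 0 to 5 lower calls in these LD pairs, with 1 exception: with unlisted tags set to 0, where 824 tags met the rule, 45 were lower than LD day 2 and 48 lower than LD day 0. Without LD day 5 in the rule 420 tags met it, of which 393 had LD day 5 as the highest of the other libraries, 180 were called higher in LD day 5 than in LD day 2 and 292 higher than in LD day 0. That rule kept the ceiling on LD day 0, LD day 2 and SD day 2 and set none on LD day 5. These counts are therefore partly fixed by it, and nothing is read from them. The 12 members included tags 3, 8 and 12. Tag 12 was at 457.6 TPM in SD day 5, against 82.4 in SD day 2 and 62.3, 59.2 and 219.1 in LD days 0, 2 and 5, so that LD day 5 stood 3.70-fold above LD day 2 (interval 3.17 to 4.33). For tag 3 LD day 5 stood 2.11-fold above LD day 2 (interval 1.94 to 2.30), and for tag 8 it stood 2.29-fold above (interval 1.91 to 2.76).

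The 12 members with LD day 5 called above LD day 2 fell in 2 classes. For 8 of them (10.8% of the members, against 3.83% of all 6208 tags) LD day 5 was also called above LD day 0, and for tags 3, 8, 49 and 58 (5.41%, against 2.16%) it was not. A further 21 members (28.4%, against 18.8%) were called above LD day 0 only, and these held 49.9% of the members' sum in SD day 5. Tag 1 is among the 21 because its log2 ratio of LD day 5 over LD day 2 was 0.998, just under the threshold of 1. Without tag 1 the class held 33.7% of the sum of the remaining members. The other 41 members (55.4%, against 55.5%) were called in neither pair and held 32.8% of the sum. Some of them, such as tags 43 and 61, were under 10 TPM in every LD library and so could not be called. They met the 10 TPM condition through SD day 5 alone, so the shares of this class are not read against each other.

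The part of the SD gain that LD also reached was estimated per tag as the difference of LD day 5 from LD day 0 in percent of the difference of SD day 5 from LD day 0. Its median was 26.5%, with a middle range from 13.6% to 35.3%. It was highest for tag 36, at 48.5%, and for 10 members it was below 0. On the summed level it was 24.6%. The rule bounds this percentage from above.

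Tags 6 and 8 were among the 10 members below 0. For these LD day 5 was at 0.708 (interval 0.616 to 0.813) and 0.638 (interval 0.561 to 0.726) of LD day 0, although it stood above LD day 2 as listed. For tag 6 that order turns when the tag 1 position away is added, with 97.6 TPM in LD day 5 against 159.6 in LD day 2.

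**Figure D5:**
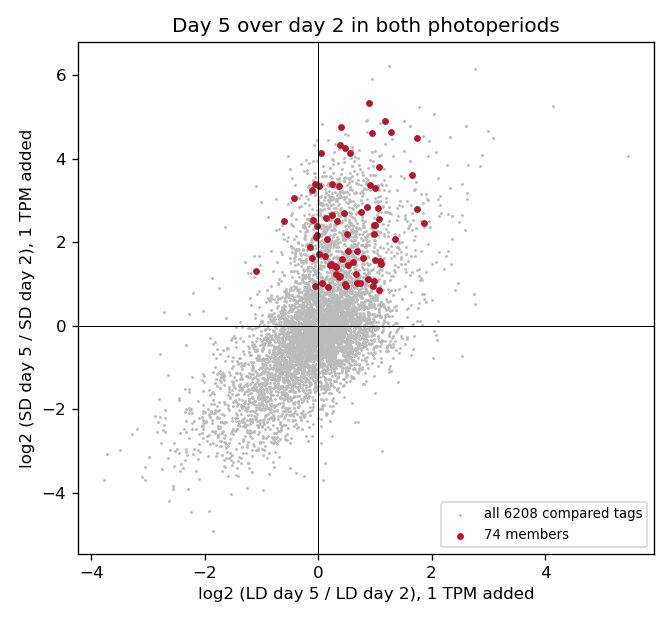
The log2 ratio of day 5 over day 2 with 1 TPM added, SD on the vertical axis and LD on the horizontal axis. Red points are the 74 members and grey points all 6208 compared tags; every member lies above 0 in SD, and 62 of the 74 lie above 0 in LD.

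After 2 short days the members were not high as a group. SD day 2 was the lowest of the 5 libraries for 41 members, LD day 0 for 18, LD day 2 for 14 and LD day 5 for 1. Among these 4 libraries, the lowest was SD day 2 for 55.4% of the members and 29.8% of all tags, and LD day 5 for 1.35% of the members and 25.9% of all tags. The rule set the same ceiling on SD day 2 as on the LD libraries. It used the values of all of them, so these shares are not free of the selection. The median log2 ratio of SD day 2 over LD day 2 was -0.41 for the members and -0.04 for all tags, and over LD day 0 it was -0.27 for the members and -0.08 for all tags. By the call, SD day 2 was higher than LD day 2 for 2 members (2.70%), against 6.46% of all tags, namely tags 7 and 58. It was lower for 17 members (23.0%), against 17.5%. Against LD day 0, SD day 2 was higher for 6 members (8.11%), where 7.12% of all tags were, and lower for 7 (9.46%), where 10.8% were. Members under 10 TPM in both libraries of a pair could not be called, and 36 members were under it in SD day 2 and 33 at LD day 0. They met the 10 TPM condition in SD day 5, so the shares called here are not read against those of all tags.

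The same early days in LD gave 12 members called higher in LD day 2 than in LD day 0 (16.2%), against 17.8% of all tags. Tags 6 and 8 were the 2 members called lower (2.70%), against 12.6%. With the tag 1 position away added, tag 6 is not lower: LD day 2 then stands at 1.16 times LD day 0, and 1 member, tag 8, is called lower. Here too, members under 10 TPM in both libraries could not be called, which limits the shares. These comparisons share libraries with each other, so they are not independent of one another.

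Members near the threshold did not stand apart from the tags just below it. The 3 just inside were tag 47, at 37.5 TPM for SD day 5 and 20.3 for LD day 5, tag 74, at 10.6 and 5.42, and tag 14, at 397.1 and 218.3. Their ratios over LD day 5, with 1 TPM added, were 1.805, 1.805 and 1.816. The 3 just outside were at 36.4 TPM for SD day 5 and 19.8 for LD day 5, at 353.1 and 196.3, and at 2030 for SD day 5 and 1132 for LD day 2, with ratios of 1.797, 1.794 and 1.793. In all, 30 members had a ratio under 2, while 39 tags at 1.7 or more were not members.

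The number of members depended on the scaling of the libraries. With TMM factors, which align the bulk of the shared tags, 126 tags met the rule, and with median-of-ratios factors 148 did. With each library rescaled to its listed total, 59 did, all of them among the 74. Both of the first settings kept all 74 members. The median log2 ratio of SD day 5 over LD day 5 over the 8910 tags listed in all libraries was -0.11 on the deposited scale, -0.004 under TMM and 0.06 under median-of-ratios factors. The summed level in SD day 5 over that in LD day 5 was 2.70 under TMM, 2.84 under median-of-ratios factors and 2.44 on the listed total.

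The same rule with another library on top gave 28 tags highest in SD day 2, 282 at LD day 0, 42 at LD day 2 and 33 at LD day 5. The 74 tags of SD day 5 held 4.26% of the listed total of their library, against 0.198% for the tags highest in SD day 2, 6.16% for LD day 0, 0.587% for LD day 2 and 1.33% for LD day 5. The 10 most abundant tags of each set held 77.0% of its sum for SD day 5, 61.0% for SD day 2, 31.5% for LD day 0, 76.7% for LD day 2 and 93.1% for LD day 5. The median ratio over the next-highest library was 2.08 for SD day 5, 1.88 for SD day 2, 2.16 for LD day 0, 1.98 for LD day 2 and 2.08 for LD day 5.

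The members held somewhat more A and T than all tags did. Over the 17 bases after the restriction site, A and T made up 67.4% on average in the 74 members and 63.2% in all 6208 tags. The middle range was from 58.8% to 76.5% in the members and from 52.9% to 70.6% in all tags, so the ranges overlap. A run of 6 or more of the same base was found in 2 members (2.70%), against 2.05% of all tags. No 2 members differed at 3 positions or fewer, so no pair of members was a near copy of the other.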

How the data were processed

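Polyadenylated RNA of whole plantlets was turned into tag libraries by an Illumina kit for gene expression samples, per the labels. Tags of 21 bases are deposited with 1 value each under the header TPM. As deposited, the unit is RPM, reads per 1000000 of the library without division by length. The values were whole multiples of 1 step per library within 0.006 TPM, except for 3 tags of SD day 2, and the lowest value was 2 tags. How tags were mapped, to which reference and build, and with which filters is not given in the sources used.

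Samples were grouped by their treatment label. The members, lists and alternatives were chosen with earlier results of these data known. Whole tags recovered from the step served only for 95% Clopper-Pearson counting intervals of a ratio (scipy 1.17.1), conditional on the sum of both libraries. No p-value and no count test was computed, because each group has 1 library and the values chose the members. A fold is the plain ratio of deposited values, and "1 TPM added" marks the other ratios.

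Named were the 10 members highest in SD day 5, the 10 with the highest ratio over the next-highest library, the 3 most abundant called higher in LD day 5 than in LD day 2, and the 3 tags on each side of the threshold. None was called lower in that LD pair. Tags 36, 49, 58 and 61 were named after their values were seen. As alternatives, the values were scaled by TMM or median-of-ratios factors over shared tags. Others were rescaling to listed tags, other pseudocounts, floors and thresholds, the interval as a condition, unlisted tags at 0, and the rule without 1 library.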

Additional observations from a re-analysis of the deposited data

Results flagged for a closer look

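Tag 61 moved in opposite directions in the 2 photoperiods. It was at 20.6 TPM in SD day 5 against 7.70 in SD day 2, and at 4.07 TPM in LD day 5 against 9.87 in LD day 2. The log2 ratio of LD day 5 over LD day 2 was -1.10 (1 TPM added), with a counting interval of the ratio from 0.209 to 0.774. It was not called lower because both LD values lay under the 10 TPM floor of the call. With 1 library a group, the difference between photoperiods was not tested.

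Outside the comparisons, 206 tags at 10 TPM or more in SD day 5 stood at least 1.8 times above every other library that listed them, but at least 1 library did not list them. Of these, 113 were listed in 1 of the other 4 libraries, 50 in 2 and 43 in 3. The most abundant was at 3210 TPM in SD day 5, against 120.3 in SD day 2, 434.9 at LD day 0 and 248.6 at LD day 5, while LD day 2 gave no value. Together they held 26438 TPM in SD day 5, against 25425 TPM for the 74 members. A further 544 tags at 10 TPM or more were listed in SD day 5 alone and are not among the 206. A missing value was not read as 0.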

How the results depend on the processing

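The counts below are given in the order tags meeting the rule, members called higher in LD day 5 than in LD day 2, lower in it, higher in LD day 5 than in LD day 0, lower in it, and members with LD day 5 as the next-highest library. On the deposited scale these were 74, 12, 0, 29, 0 and 47. Of 90 alternative counts, 49 stayed within 1.5 times of these, and the other 41 follow.

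TMM scaling gave 126, 19, 1, 47 and, for the next-highest library, 86; median-of-ratios scaling gave 148, 24, 1, 47, 1 and 100. The cause was not tested. With no floor in the rule and in the call, 1 member was lower than LD day 2 and 1 lower than LD day 0. A pseudocount of 0.1 gave 1 member lower than LD day 2, and a pseudocount of 5 gave 7 higher than LD day 2. A floor of 50 TPM, set in the rule and in the call, gave 38, 6, 14 higher than LD day 0 and 25. A threshold of 1.5 times gave 212, 33, 2, 87, 1 and 138. A threshold of 2.5 times gave 13, 3 higher than LD day 2, 4 higher than LD day 0 and 6. With unlisted tags set to 0 the counts were 824, 33, 45, 52, 48 and 83, because an unlisted tag then lies below any level. Without LD day 5 in the rule they were 420, 180 and 292 for the higher calls, and 393. Without LD day 0 in the rule, 3 were lower than LD day 0, and without LD day 2, 5 were lower than LD day 2. The counting interval as a further condition removed 0 members. It already lay above 1 for all 74, so this setting is no check on the counts.

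Of 101 alternative log2 ratios of named tags over the next-highest library, 78 stayed inside the counting interval of the ratio, 23 did not, and 0 changed sign. Under the scalings and pseudocounts the log2 ratio of tag 6 ranged from 3.01 to 3.25, with the tag 1 position away added to it (chosen after seeing the data) it was 2.97, and that of tag 1 from 0.90 to 1.12. The share of the listed total in SD day 5 (interval 4.23% to 4.29%) was 3.44% with rescaling to listed tags, 7.22% with median-of-ratios factors, 1.01% at 2.5 times, 8.10% at 1.5 times, 10.9% without LD day 5 in the rule and 14.5% with unlisted tags set to 0. Of 30 alternative shares of this kind and of the first 10 tags, 26 left the interval. No paired analysis was possible because each group has 1 library. Depth limits the least abundant members: the fold of tag 74 over LD day 5 had an interval from 1.11 to 3.55.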
